A study of Chionodraco hamatus and Gymnodraco acuticeps and Trematomus bernacchii with 9 samples.

Results

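The rows of the count table that carry a hemoglobin chain name were described across the head kidneys of 3 notothenioid fish species. A row belonged here when its mnemonic, the leading part of its UniProt entry name, was HBA, HBA1, HBA2, HBAD, HBB, HBB1 or HBB2, and 7 of 12653 rows did. There were 3 alpha chain rows, HBA_TREBE, HBA2_GOBGI and HBAD_APUAP, and 4 beta chain rows, HBB_TREHA, HBB2_PSEUR, HBB2_GOBGI and HBB_NOTAN. The groups were the icefish Chionodraco hamatus and the red-blooded dragonfish Gymnodraco acuticeps and rockcod Trematomus bernacchii, with 3 bulk RNA libraries each. All 9 libraries were made from 6 µg of total RNA of frozen head kidney, where bony fish form most of their blood cells, and no treatment, time, sex or age is labelled. The libraries of a species are numbered replicates, and nothing labels them as separate animals, so the p-values cover the spread between these libraries alone, which may be technical. The title of the series concerns the suppression of red cell formation in the icefish, and hemoglobin is the main product of that cell lineage.

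Hemoglobin carries oxygen in red cells as a tetramer of paired alpha and beta chains, each of which holds a heme group with an iron atom. Red cells of fish keep their nucleus and hold RNA in the circulation, so hemoglobin transcripts in a tissue can come from developing cells or from blood. Adult icefish have no hemoglobin. In most of their family the beta globin gene is gone and only a fragment of the alpha globin gene remains.

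The code at the end of a row name gives the organism of the matched protein entry and not the fish that was sampled. TREBE is T. bernacchii itself, TREHA the related rockcod Trematomus hansoni, GOBGI Gobionotothen gibberifrons, NOTAN Notothenia angustata and PSEUR Pseudaphritis urvillii, all of them notothenioid fishes. APUAP is the common swift, and HBAD is the alpha-D chain known from a minor hemoglobin of birds. Rows of such close relatives can share reads, so the value of each single row is uncertain where the reads of 1 chain could fall on several rows. For that reason the sums of the alpha rows and of the beta rows are given beside the rows.

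Total counts ran from 2501922 to 12055675 per library. Of the blood-forming markers KIT, MYB, SPI1, RUNX1, CEBPA, IKZF1 and CXCR4, 8 rows were present and their summed level was 289.9 to 1316 CPM (depth-scaled counts) in C. hamatus, compared with 572 to 975 CPM in G. acuticeps and 648 to 793 CPM in T. bernacchii. KIT_TAKRU, a stem cell receptor, was near 0 everywhere, with 4 counts over the C. hamatus libraries, 0 over those of G. acuticeps and 1 over those of T. bernacchii. CEBPA_RAT held 61 counts over the C. hamatus libraries, 0 over those of G. acuticeps and 110 over those of T. bernacchii. IKZF1_ONCMY held 508, 1 and 60 counts in the same order. MYB_CHICK was at means of 43.0, 366 and 56.3 CPM, and CXCR4_PANTR, the largest row in C. hamatus, at 505, 217 and 417 CPM. The sums thus do not show that the blood-forming content was alike. Transcripts of adrenal cells, which lie in the head kidney of fish, set C. hamatus replicates 2 and 3 apart. The interrenal list summed to 24223 CPM in C. hamatus replicate 3 and to 13.9 and 26.1 CPM in replicates 1 and 2, and the chromaffin list to 7359.77 CPM in replicate 2. C. hamatus replicate 1 held 0 counts on every hemoglobin row but HBB2_PSEUR, where it held 2. A fit without C. hamatus replicates 2 and 3 keeps only that library of the species. It thus cannot tell whether adrenal content bears on the hemoglobin calls. Skeletal muscle markers summed to 23.4 to 198 CPM in C. hamatus, 20186 to 31005 CPM in G. acuticeps, against 265 to 1239 CPM in T. bernacchii. ACTS_ORYLA, a skeletal muscle actin, carried the G. acuticeps sum, and without it the list came to 1.16 to 11.9 CPM in C. hamatus, 138 to 1147 CPM in G. acuticeps and 246 to 1074 CPM in T. bernacchii, so that the red-blooded species overlapped. The part of these rows in the comparisons below was not tested. Kidney tubule markers summed to 153 to 585 CPM in C. hamatus, 114 to 136 CPM in G. acuticeps and 179 to 349 CPM in T. bernacchii.

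The 3 alpha rows were each at 0 in C. hamatus, and the main alpha row differed between the red-blooded species. HBA_TREBE held 0, 0 and 0 counts in the C. hamatus libraries, 0, 0 and 0 in those of G. acuticeps and 295372, 104795 and 891476 in those of T. bernacchii. It was thus found in every T. bernacchii library and in no library of the other species. Its level in T. bernacchii was 65134 ± 26659 CPM (SD, n = 3), where it ranked 1 or 2 of all rows in each library. HBA2_GOBGI held 0, 0 and 0 counts in the C. hamatus libraries, 24019, 32944 and 91800 in those of G. acuticeps and 0, 0 and 1 in those of T. bernacchii. This was the main alpha row of G. acuticeps, at 8364 ± 934 CPM (SD, n = 3) and ranks 11 to 18. HBAD_APUAP held 0, 0 and 0 counts in the C. hamatus libraries, 451, 368 and 944 in those of G. acuticeps and 241, 303 and 236 in those of T. bernacchii. It was the only hemoglobin row with more than 1 count in every library of both red-blooded species.

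The beta rows were split between the red-blooded species in the same manner, and the icefish held 5 beta chain counts in all. HBB_TREHA held 0, 0 and 0 counts in the C. hamatus libraries, 0, 0 and 0 in those of G. acuticeps and 120894, 83663 and 860929 in those of T. bernacchii. It ranked 3 in each T. bernacchii library, at 47278 ± 31425 CPM (SD, n = 3), and replicate 3 stood above the others. HBB2_PSEUR held 2, 3 and 0 counts in the C. hamatus libraries, 36330, 40689 and 115132 in those of G. acuticeps and 0, 0 and 0 in those of T. bernacchii. It was the main beta row of G. acuticeps, at 11082 ± 770.4 CPM (SD, n = 3) and ranks 5 to 9, against 0.493 ± 0.508 CPM in C. hamatus. HBB2_GOBGI held 0, 0 and 0 counts in the C. hamatus libraries, 0, 0 and 0 in those of G. acuticeps and 12495, 10158 and 33226 in those of T. bernacchii. This additional beta row of T. bernacchii was at 3252 ± 154 CPM (SD, n = 3), with far less spread between libraries than HBB_TREHA. HBB_NOTAN held 0, 0 and 0 counts in the C. hamatus libraries, 0, 1 and 0 in those of G. acuticeps and 5, 3 and 60 in those of T. bernacchii, and did not pass the filter on low counts.

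**Figure D1:**
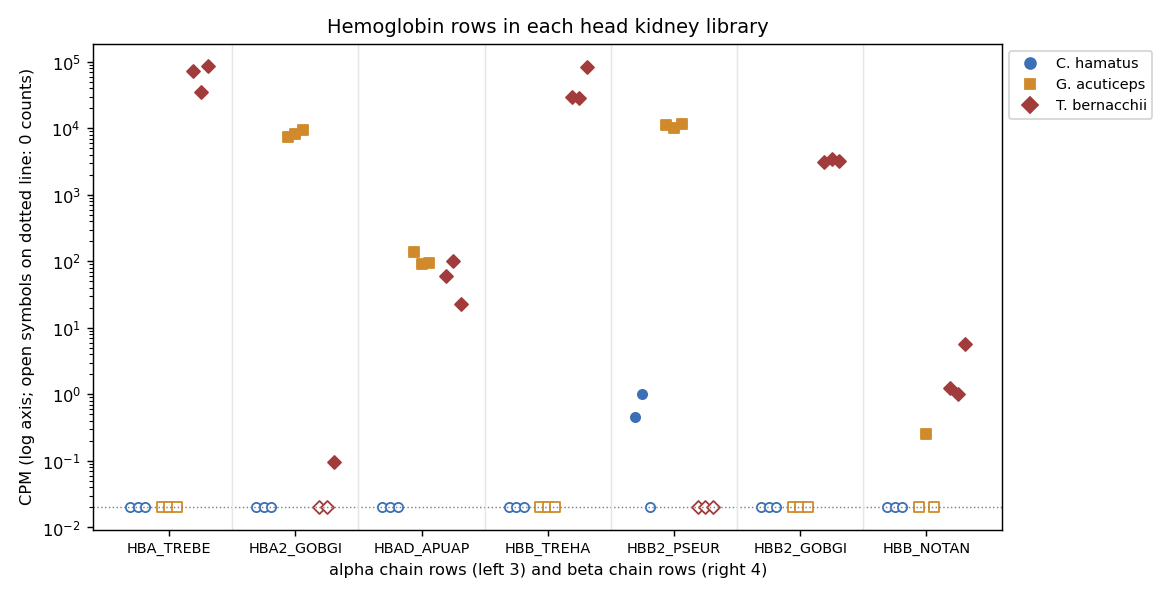
Level of each hemoglobin row in CPM on a log axis, with 1 point per library, C. hamatus left of G. acuticeps and T. bernacchii, and open symbols on the dotted line for 0 counts. HBA_TREBE, HBB_TREHA and HBB2_GOBGI are high in T. bernacchii, HBA2_GOBGI and HBB2_PSEUR are high in G. acuticeps, and HBAD_APUAP lies near 100 CPM or below in most libraries of both red-blooded species (140.4, 92.5 and 96.0 CPM in G. acuticeps and 60.1, 102 and 22.9 CPM in T. bernacchii).

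Hemoglobin took a large share of the red-blooded libraries and almost none of the icefish libraries. All 7 rows together held 2, 3 and 0 counts in C. hamatus, which is 5 of 11969106 counts (95% exact Poisson interval 1.62 to 11.7 counts). In G. acuticeps they held 1.99, 1.72 and 1.72% of the library, a mean of 1.81% ± 0.157 (SD, n = 3). In T. bernacchii they held 11.1, 7.65 and 15.1%, a mean of 11.3% ± 3.71 (SD, n = 3). The 3 species did not overlap in this share. Between the red-blooded species, fewer red cells and less hemoglobin RNA per cell cannot be told apart in bulk tissue. For C. hamatus, the loss of globin genes described above for most of its family comes in as well, and was not tested here. The alpha sum was 0 in C. hamatus, with an exact 95% Poisson upper limit of 3.69 counts over its libraries. It was 0.781% ± 0.0177 in G. acuticeps, against 6.40% ± 2.04 in T. bernacchii (SD, n = 3 each). The beta sum was 5.29e-05% ± 6.12e-05 in C. hamatus, 1.03% ± 0.139 in G. acuticeps, against 4.87% ± 2.32 in T. bernacchii (SD, n = 3 each). The C. hamatus mean was 1.93e-05% with replicate 2 left out, and 7.93e-05% with replicate 3 left out. Intervals and floors cover counting error only, since reads without molecular identifiers are not independent molecules.

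**Figure D2:**
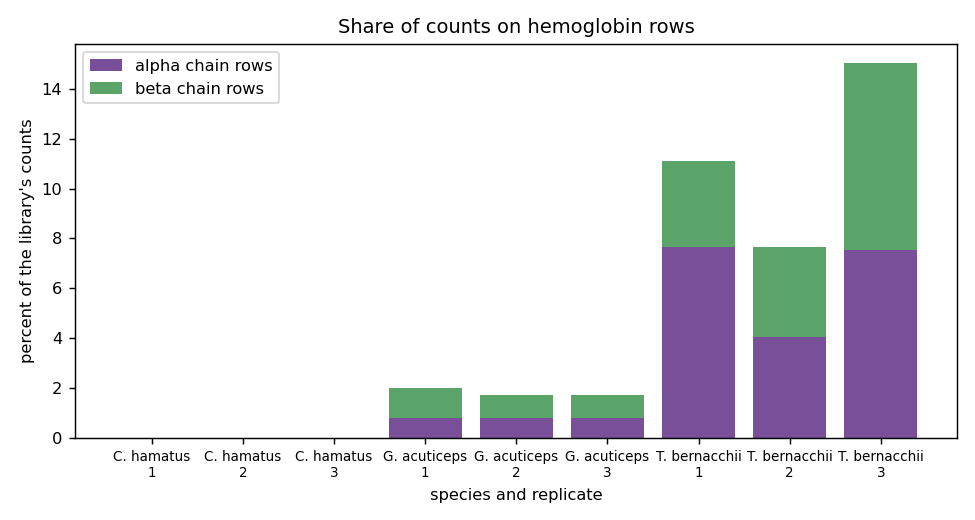
Percent of each library's counts on hemoglobin rows, as bars stacked by alpha and beta chain rows, with C. hamatus at the left, then G. acuticeps, then T. bernacchii (replicates 1 to 3 each). The C. hamatus bars are not visible, the G. acuticeps bars reach 1.72 to 1.99% and the T. bernacchii bars 7.65 to 15.1%.

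The icefish was set against G. acuticeps to ask which hemoglobin rows were lower than in that red-blooded species. Counts were fitted with edgeR's quasi-likelihood test over 8662 rows, 6 of the 7 hemoglobin rows among them, and an adjusted p under 0.05 after Benjamini-Hochberg correction made a call. HBA2_GOBGI, HBB2_PSEUR and HBAD_APUAP were called lower in C. hamatus and 0 rows were called higher. Of all rows tested, 16.8% were called lower and 25.1% higher. The filter kept these rows through the species in which they were high, so the count supports nothing beyond the rows themselves. A fold against a species with 0 counts is a lower bound, computed against 3 counts per library. Relative to G. acuticeps, HBA2_GOBGI was lower in C. hamatus by at least 10878.5-fold (adjusted p = 5.87e-05). HBB2_PSEUR, with 5 counts in C. hamatus and 192151 in G. acuticeps, was 27776-fold lower by depth-scaled counts (95% counting interval 11902 to 85544, adjusted p = 8.81e-05). HBAD_APUAP was at least 143-fold lower (adjusted p = 0.000163). The alpha sum was at least 11021-fold lower and the beta sum 27776-fold lower (11902 to 85545), which rests on the same 5 C. hamatus counts. The fitted log2 difference of HBB2_PSEUR was -14.56, and leaving out C. hamatus replicate 2 gave -15.50, while leaving out replicate 3 of that species gave -13.90. No p is given for sums, because their members were chosen with results of these data known.

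Against T. bernacchii another set of rows was lower in the icefish, the rows on which T. bernacchii reads fell. HBA_TREBE, HBB_TREHA and HBB2_GOBGI were at 0 in every G. acuticeps library as well, and passed the filter through T. bernacchii alone. Their calls thus set T. bernacchii apart and are not particular to the icefish. HBA_TREBE, HBB_TREHA, HBB2_GOBGI and HBAD_APUAP were called lower in C. hamatus and 0 rows were called higher, where 14.8% of all rows tested were called lower and 17.6% higher. Relative to T. bernacchii, HBA_TREBE was lower in C. hamatus by at least 84712-fold (adjusted p = 0.000251). HBB_TREHA was at least 61489-fold lower (adjusted p = 0.000327) and HBB2_GOBGI at least 4229.96-fold lower (adjusted p = 0.000138). With T. bernacchii replicate 3 left out, the bound of HBB_TREHA was 37904-fold. HBAD_APUAP, the row of the lowest level among these, was at least 80.2-fold lower (adjusted p = 0.000303). HBB2_PSEUR, with 5 counts in C. hamatus and 0 in T. bernacchii, was not called (adjusted p = 0.0640), but DESeq2 called it higher and so did the main test without C. hamatus replicate 3, the C. hamatus library at 0. Each C. hamatus library was at or below the floor of 3 counts on this row, so no fold is given. HBB_NOTAN, which was not tested, was lower in C. hamatus by at least 3.50-fold, a bound of 1.47-fold with T. bernacchii replicate 3 left out. The alpha sum was at least 84792-fold lower and the beta sum 159613-fold lower (95% counting interval 68395.5 to 491575). The beta ratio rests on the 5 C. hamatus counts of HBB2_PSEUR, a row at 0 in T. bernacchii. The fitted log2 difference of the beta sum lay between -17.67 (C. hamatus replicate 2 left out) and -16.05 (T. bernacchii replicate 3 left out).

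Between the red-blooded species, the rows of the main chains that were high in one were at 0 or 1 count in the other, and the sums were lower in G. acuticeps. HBA2_GOBGI and HBB2_PSEUR were called higher in G. acuticeps, and HBA_TREBE, HBB_TREHA and HBB2_GOBGI were called lower. Of all rows tested, 13.1% were called higher and 18.3% lower. HBA2_GOBGI was 151086-fold higher in G. acuticeps than in T. bernacchii by depth-scaled counts (95% counting interval 27116.5 to 5967610, adjusted p = 6.69e-05), a ratio that rests on the single count in T. bernacchii replicate 3, without which that species was at 0. HBB2_PSEUR was at least 16229.6-fold higher (adjusted p = 8.1e-05). HBA_TREBE was at least 98051-fold lower in G. acuticeps (adjusted p = 0.000178), HBB_TREHA at least 71171-fold lower (adjusted p = 0.000228; 43872-fold with T. bernacchii replicate 3 left out) and HBB2_GOBGI at least 4896-fold lower (adjusted p = 9.4e-05). Whether such rows are different genes, or the same gene matched to entries of different organisms in the different species, cannot be told apart from these counts.

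The rows of a chain were summed because reads of 1 chain can fall on entries of different organisms. Whether entries of different length or completeness bear on the sums was not tested. The alpha sum was 7618, 8369.53 and 9435 CPM in G. acuticeps, against 73688, 35365 and 86534.5 CPM in T. bernacchii. Every G. acuticeps library was below every T. bernacchii library, with a log2 difference of -2.94 (SE 0.62). The beta sum was 11310.1, 10223 and 11712 CPM in G. acuticeps, against 33251.5, 31571 and 86777 CPM in T. bernacchii. The species did not overlap here either, and the log2 difference was -2.19 (SE 0.72). T. bernacchii replicate 3 weighed on the beta sum, whose difference was -1.44 without that library. All hemoglobin rows together were at 19556 ± 1388 CPM in G. acuticeps and 115729 ± 53729.8 CPM in T. bernacchii (SD, n = 3 each), a log2 difference of -2.56 (SE 0.74).

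HBAD_APUAP did not follow the sums. Its level was 140.4, 92.5 and 96.0 CPM in G. acuticeps, against 60.1, 102 and 22.9 CPM in T. bernacchii. The species overlapped, since T. bernacchii replicate 2 was above 2 of the G. acuticeps libraries. The log2 difference was 0.83 (SE 0.57) and was not called (adjusted p = 0.300). As a share of the alpha counts, HBAD_APUAP was 1.32% ± 0.453 in G. acuticeps and 0.132% ± 0.138 in T. bernacchii (SD, n = 3 each). The lowest G. acuticeps share was 1.02% and the highest T. bernacchii share 0.288%. The alpha sum, which was higher in T. bernacchii, is the denominator of this share. Within T. bernacchii the library with the most HBAD_APUAP, replicate 2, had the least of all hemoglobin, and the library with the least HBAD_APUAP, replicate 3, had the most. The G. acuticeps libraries were not so ordered, since replicate 2 had the least of both, at 92.5 and 18593 CPM. A relation between them was not tested.

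The ratio of alpha to beta counts was lower in every G. acuticeps library than in the T. bernacchii libraries, 1 of which stood apart from the others of its species. The ratio of the alpha sum to the beta sum was 0.674, 0.819 and 0.806 in G. acuticeps, a mean of 0.766 ± 0.0803 (SD, n = 3). In T. bernacchii it was 2.22, 1.12 and 0.997, a mean of 1.44 ± 0.671 (SD, n = 3). Beta counts exceeded alpha counts in all 3 G. acuticeps libraries and in T. bernacchii replicate 3 by a small margin, and alpha counts exceeded beta counts in T. bernacchii replicates 1 and 2. The ranges did not overlap, but the mean in T. bernacchii was 1.06 without replicate 1, and the other libraries of that species lay closer together than those of G. acuticeps. These are ratios of counts and not of transcripts, since no length of the sequences behind the rows was at hand. Leaving HBAD_APUAP out moved the means only to 0.756 in G. acuticeps and 1.44 in T. bernacchii.

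The beta counts of T. bernacchii were divided over more than 1 row, unlike those of G. acuticeps. HBB_TREHA held 92.0% ± 3.75 and HBB2_GOBGI 7.97% ± 3.76 of the T. bernacchii beta counts (SD, n = 3 each). HBB_TREHA exceeded HBB2_GOBGI 9.68-fold, 8.24-fold and 25.9-fold in replicates 1, 2 and 3. The higher beta sum of replicate 3 thus came from HBB_TREHA, since HBB2_GOBGI was at 3115, 3418 and 3224 CPM in the same libraries. In G. acuticeps, HBB2_PSEUR held at least 99.9975% of the beta counts in each library.

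**Figure D3:**
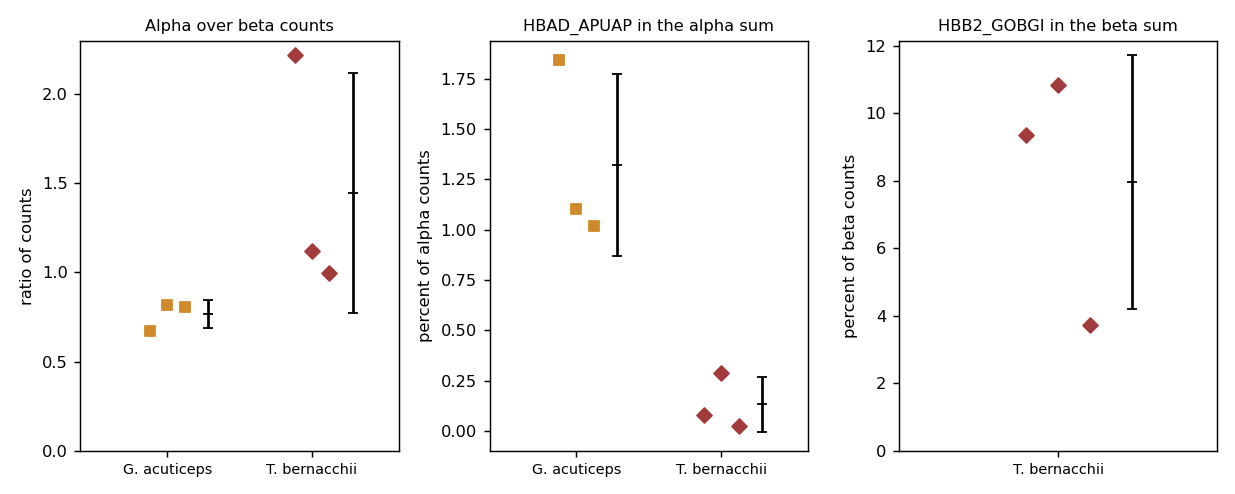
Balance within the hemoglobin rows, with 1 point per library and the mean ± SD. From left to right are the ratio of alpha to beta counts in G. acuticeps and T. bernacchii, the percent of alpha counts on HBAD_APUAP in the same species, and the percent of beta counts on HBB2_GOBGI in T. bernacchii; the alpha-to-beta ratio lies between 0.674 and 0.819 in G. acuticeps and between 0.997 and 2.22 in T. bernacchii.

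Heme synthesis, the pathway that makes the heme held by each chain, had 7 rows, all tested. Against G. acuticeps, 5 of the 7 were called lower in C. hamatus and 0 higher, with a median log2 fold change of -3.92, beside 16.8% lower, 25.1% higher and a median of 0.15 over all rows. Against T. bernacchii, 5 were lower and 0 higher, with a median of -1.67, beside 14.8%, 17.6% and 0.02 over all rows. Those 5 became 3 without T. bernacchii replicate 3. In that setting 2450 of 9147 rows were called in either direction, compared with 2810 of 8662 in the main fit. HEM0_OPSTA, the red cell form of 5-aminolevulinate synthase, which starts the pathway in red cell precursors, was at 12.3, 7.45 and 9.53 CPM in C. hamatus. It was at 2916, 2456 and 2748 CPM in G. acuticeps and at 742, 1236 and 639.6 CPM in T. bernacchii. All C. hamatus libraries were below all others, with a difference of -8.11 against G. acuticeps (SE 0.56, adjusted p = 5.72e-05) and of -6.48 against T. bernacchii on the log2 scale (SE 0.53, adjusted p = 0.00011).

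The general form of the same enzyme, HEM1_OPSTA, which serves all cells, was not lower in the icefish. It was at 168, 607 and 546 CPM in C. hamatus, 76.6, 154 and 233 CPM in G. acuticeps and 135, 229 and 176 CPM in T. bernacchii. Its log2 fold changes of 1.51 (SE 0.57, adjusted p = 0.0543) and 1.29 (SE 0.56, adjusted p = 0.106) were not called. C. hamatus replicate 1 overlapped the other species, and without replicates 2 and 3 the difference from T. bernacchii was -0.07. A relation of this row to adrenal transcripts was not tested. With C. hamatus replicate 1 left out, both differences were called (1.81, adjusted p = 0.0195, and 1.72, adjusted p = 0.0295), and DESeq2 called the first (adjusted p = 0.0238).

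Several later enzyme rows were also lower in C. hamatus, not all of them against both species. HEM6_HUMAN, coproporphyrinogen oxidase, differed by -4.92 against G. acuticeps (adjusted p = 0.000106) and by -1.67 against T. bernacchii (adjusted p = 0.0145). PPOX_HUMAN, protoporphyrinogen oxidase, differed by -3.92 (adjusted p = 0.000385) and -1.88 (adjusted p = 0.0134) in the same order. HEM2_MOUSE, porphobilinogen synthase, differed by -3.16 (adjusted p = 0.000939) and -1.58 (adjusted p = 0.0270). Against T. bernacchii these calls were lost on leaving out some libraries. HEM6_HUMAN was lost without T. bernacchii replicate 1 (adjusted p = 0.0507), PPOX_HUMAN without T. bernacchii replicate 3 (adjusted p = 0.0542), and HEM2_MOUSE without C. hamatus replicate 1 or 2, G. acuticeps replicate 2 or T. bernacchii replicate 3 (-1.03 and adjusted p = 0.133 without the last). Without C. hamatus replicates 2 and 3, which leaves 1 library of that species, all 3 were not called. HEM6_HUMAN was then at -1.62 (adjusted p = 0.102), PPOX_HUMAN at -1.22 (adjusted p = 0.210) and HEM2_MOUSE at -1.57 (adjusted p = 0.142), and the lone library was assumed to vary like those of the other species. HEM3_HUMAN, porphobilinogen deaminase, was lower against G. acuticeps (-4.76, adjusted p = 0.00300; -5.77 leaving out C. hamatus replicate 3, -4.10 leaving out G. acuticeps replicate 1) and was -0.56 against T. bernacchii (adjusted p = 0.644). HEM4_HUMAN, uroporphyrinogen-III synthase, was at 0 in C. hamatus and in G. acuticeps, against 796, 196 and 1359 counts in T. bernacchii, so that its C. hamatus level was at least 172-fold below that of T. bernacchii. A red-blooded species thus had no count on an enzyme row of the pathway that makes its heme.

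Between the red-blooded species the heme synthesis rows went the other way from the hemoglobin sums. In G. acuticeps, 5 of 7 heme synthesis rows were called higher and 1 lower than in T. bernacchii, with a median of 1.63, beside 13.1% higher, 18.3% lower and a median of -0.12 over all rows, while the alpha and beta sums were lower. The 5 became 3 without T. bernacchii replicate 1, where 2308 of 9261 rows were called in either direction, compared with 2721 of 8662 in the main fit. HEM0_OPSTA was higher by 1.63 (SE 0.42, adjusted p = 0.0140), but not called without T. bernacchii replicate 1 (1.55, adjusted p = 0.0659). HEM6_HUMAN was higher by 3.26 (adjusted p = 0.000514), HEM3_HUMAN by 4.20 (adjusted p = 0.00643; 3.53 leaving out G. acuticeps replicate 1, 5.23 leaving out T. bernacchii replicate 2) and PPOX_HUMAN by 2.03 (adjusted p = 0.00932). HEM2_MOUSE was higher by 1.58 (adjusted p = 0.0271), a call lost without G. acuticeps replicate 2 or 3 or T. bernacchii replicate 1 or 2 (adjusted p up to 0.0991), while leaving out T. bernacchii replicate 3 gave 2.19 (adjusted p = 0.0119). The 1 lower row was HEM4_HUMAN, at least 199-fold lower in G. acuticeps (adjusted p = 0.000371). Summed hemoglobin per unit of HEM0_OPSTA was 6.49, 7.57 and 7.70 in G. acuticeps, against 144, 54.1 and 271 in T. bernacchii, as a ratio of CPM. The species did not overlap. The T. bernacchii libraries were ordered by this ratio as by their hemoglobin share, but hemoglobin is the numerator of the ratio, so the order adds little.

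**Figure D4:**
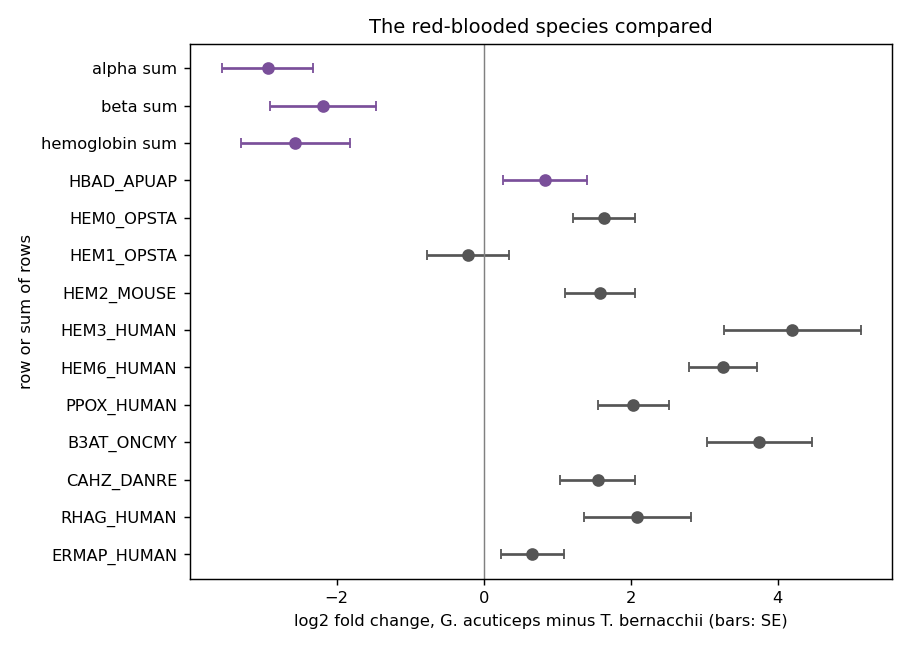
Log2 fold change of G. acuticeps over T. bernacchii, with SE, for the hemoglobin sums, HBAD_APUAP, heme synthesis rows and red cell rows. Positive values are higher in G. acuticeps and HEM4_HUMAN, at 0 in G. acuticeps, is left out. The alpha and beta sums lie at -2.94 and -2.19, while HEM0_OPSTA, HEM6_HUMAN and B3AT_ONCMY lie at 1.63, 3.26 and 3.75.

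Supply of iron and heme intermediates was lower in the icefish in part of its rows. Of 12 rows, 10 were tested, and 5 were called lower and 0 higher in C. hamatus than in G. acuticeps (median -1.91), beside 16.8% lower, 25.1% higher and a median of 0.15 over all rows. Against T. bernacchii, 4 were lower and 1 higher (median -1.41), beside 14.8% lower, 17.6% higher and a median of 0.02 over all rows. MFRN1_DANRE, mitoferrin 1, which brings iron into mitochondria of red cell precursors, held 2 counts over the C. hamatus libraries, 3334 over those of G. acuticeps and 279 over those of T. bernacchii. By depth-scaled counts the C. hamatus level was 1205-fold below that of G. acuticeps (95% counting interval 333 to 9953, adjusted p = 0.000385) and 99.3-fold below that of T. bernacchii (27.2 to 824, adjusted p = 0.00221). Both C. hamatus counts lay in replicate 3, without which the species was at 0. The fitted log2 difference from T. bernacchii was -7.13 and became -6.50 leaving out C. hamatus replicate 1, while leaving out T. bernacchii replicate 2 gave -5.34, that library being the highest of its species. TFR1_CRIGR, the transferrin receptor for iron uptake, was at 102, 66.0 and 48.1 CPM in C. hamatus, 2559.94, 1694 and 1042 CPM in G. acuticeps, and 517, 385 and 517 CPM in T. bernacchii. The 3 species did not overlap, and the log2 differences were -4.61 (SE 0.53, adjusted p = 0.00019) and -2.71 (SE 0.49, adjusted p = 0.00233). TM14C_DANRE, a mitochondrial porphyrin carrier, differed by -4.44 (adjusted p = 0.000867) and -3.27 (adjusted p = 0.00409). GLRX5_DANRE, a glutaredoxin of iron-sulfur assembly, was also called lower against G. acuticeps (-2.57, SE 0.45, adjusted p = 0.00162).

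The single row of this list called higher in C. hamatus than in T. bernacchii was FLVC2_HUMAN, related to a heme exporter (6.07, SE 1.08, adjusted p = 0.00224). It held 2 counts over the T. bernacchii libraries. Its level was 6.03, 3.38 and 15.1 CPM in C. hamatus and 11.5, 9.80 and 9.26 CPM in G. acuticeps, without a call (-0.31, adjusted p = 0.785). The count of higher rows was 0 with a filter of 50 counts and 2 without C. hamatus replicate 1 or 2. The count of lower rows against T. bernacchii was 7 without T. bernacchii replicate 2 and 2 without C. hamatus replicates 2 and 3, where TFR1_CRIGR (-2.19, adjusted p = 0.0538) and TM14C_DANRE (-3.09, adjusted p = 0.0786) were no longer called. Between the red-blooded species, 4 of the 10 were called higher and 0 lower in G. acuticeps (median 0.86), beside 13.1% higher, 18.3% lower and a median of -0.12 over all rows. TFR1_CRIGR was higher by 1.90 (SE 0.47, adjusted p = 0.0117), and MFRN1_DANRE by 2.81 (SE 0.88, adjusted p = 0.0330; 4.61 without T. bernacchii replicate 2), a call lost on leaving out any G. acuticeps library or T. bernacchii replicate 1 or 3 (adjusted p up to 0.0924).

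Heme breakdown and hemoglobin scavenging had 7 rows, 4 of them tested. Against G. acuticeps, 2 were called lower and 1 higher in C. hamatus (median -2.24), and against T. bernacchii 3 were lower and 0 higher (median -2.92). All rows had 16.8% lower, 25.1% higher and a median of 0.15 against G. acuticeps, and 14.8%, 17.6% and 0.02 against T. bernacchii, so that 1 higher row of 4 is near the share over all rows. HPT_MOUSE, haptoglobin, which binds hemoglobin freed into plasma, was at 0.696, 0 and 0.794 CPM in C. hamatus, 26.1, 4.52 and 9.46 CPM in G. acuticeps and 3.74, 12.1 and 1.75 CPM in T. bernacchii. It was lower in every C. hamatus library, with differences of -4.59 (SE 1.20, adjusted p = 0.0114) and -3.39 (SE 1.16, adjusted p = 0.0462). The first call was lost without G. acuticeps replicate 1 (-3.71, adjusted p = 0.0514), and the second on leaving out any library but T. bernacchii replicate 3 (adjusted p up to 0.127, where T. bernacchii replicate 2 was left out and the difference was -2.31). BLVRB_HUMAN, a biliverdin reductase, differed by -3.40 (adjusted p = 0.0110) and -2.92 (adjusted p = 0.0252), or -4.17 and -3.68 without C. hamatus replicate 2, the second value being -1.49 without T. bernacchii replicate 2. That call was lost without that library (adjusted p = 0.0952) or C. hamatus replicate 1 or 3, which left 1 lower row. HMOX2_RAT, the constitutive heme oxygenase, was at 5.33, 9.48 and 2.38 CPM in C. hamatus, at most 0.407 CPM in G. acuticeps and 38.4, 44.1 and 47.4 CPM in T. bernacchii. It was higher in C. hamatus than in G. acuticeps (4.31, adjusted p = 0.00244) and lower than in T. bernacchii (-2.93, adjusted p = 0.00899).

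Regulators of globin genes had 22 rows, 14 of them tested. In C. hamatus, 6 were called lower and 1 higher than in G. acuticeps (median -2.30), and 6 lower and 0 higher than in T. bernacchii (median -2.03), where all rows had 16.8% lower and 25.1% higher against G. acuticeps, and 14.8% lower and 17.6% higher against T. bernacchii. The higher row was BACH1_MOUSE, a repressor that senses heme (6.45, SE 0.84, adjusted p = 0.000355), at 18.8, 18.3 and 52.0 CPM in C. hamatus and at most 0.509 CPM in G. acuticeps. In T. bernacchii BACH1_MOUSE was at a mean of 49.9 CPM, and C. hamatus did not differ by a call from that species (-0.75, SE 0.62, adjusted p = 0.394). The row was thus low in G. acuticeps rather than raised in the icefish alone. LDB1_XENLA, MYB_CHICK, KLF3_MOUSE, RUNX1_HUMAN, EPOR_PIG and MAFK_MOUSE were not called in either C. hamatus comparison. GATA1_CHICK, not tested, held 13 counts in G. acuticeps replicate 3 and 0 in every other library, those of T. bernacchii included. TAL1_TAKRU, a transcription factor of the red cell lineage, was at 0.928, 0 and 0.397 CPM in C. hamatus, 747, 363 and 185 CPM in G. acuticeps and 83.5, 40.7 and 67.6 CPM in T. bernacchii. All C. hamatus libraries were below all others, and the log2 differences were -9.76 (SE 0.94, adjusted p = 9.1e-05) and -7.00 (SE 0.87, adjusted p = 0.000361). They were -10.72 and -7.89 without C. hamatus replicate 1, and the first was -9.14 without G. acuticeps replicate 1. KLF1_HUMAN, an activator of beta globin in mammals, was at 0.696, 0.338 and 1.19 CPM in C. hamatus, 13.7, 8.04 and 10.3 CPM in G. acuticeps and 169, 151 and 41.6 CPM in T. bernacchii. It was lower in C. hamatus than in each (-3.73, adjusted p = 0.00201, and -7.23, adjusted p = 0.000192) and, like the hemoglobin sums, lower in G. acuticeps than in T. bernacchii (-3.49, SE 0.61, adjusted p = 0.00187).

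E2AK1_MACFA, the heme-regulated kinase that matches globin translation to heme, was at 0.928, 0 and 4.37 CPM in C. hamatus, 468, 421 and 262 CPM in G. acuticeps and 7.98, 23.2 and 12.03 CPM in T. bernacchii. It was lower against G. acuticeps (-7.65, adjusted p = 0.00039) and against T. bernacchii (-2.91, adjusted p = 0.0264). Without C. hamatus replicate 3 these values were -9.46 and -4.70, and the second was not called without C. hamatus replicate 1 (adjusted p = 0.0777) or T. bernacchii replicate 2 (adjusted p = 0.0569). GFI1B_CHICK, a repressor needed for red cell and platelet formation in mammals, was at 13.7, 1.69 and 0.397 CPM in C. hamatus, 151, 129 and 89.9 CPM in G. acuticeps and 64.6, 49.8 and 36.5 CPM in T. bernacchii. Its differences of -4.53 (adjusted p = 0.00459) and -3.24 (adjusted p = 0.0228) were -7.04 and -5.65 without C. hamatus replicate 1, the highest of its species. The second was not called without C. hamatus replicate 2 (adjusted p = 0.0670) or T. bernacchii replicate 1 (adjusted p = 0.0551). Between the red-blooded species, 2 regulators were higher and 4 lower of 14 tested in G. acuticeps (median 1.09 beside -0.12 over all rows), and 5 were higher without C. hamatus replicate 1. In that setting 2858 of 9155 rows were called in either direction, compared with 2721 of 8662 in the main fit. The higher count of the main fit is near the 13.1% of all rows called higher there, while 18.3% of all rows were called lower. The higher ones were TAL1_TAKRU and E2AK1_MACFA, and the lower ones KLF1_HUMAN, BACH1_MOUSE, NFE2_BOVIN and MAFK_MOUSE.

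The partners of hemoglobin in red cell redox chemistry numbered 3 tested rows. In C. hamatus, 1 was lower and 1 higher than in G. acuticeps (median -1.05), and 2 were lower and 0 higher than in T. bernacchii (median -1.31). Of all rows, 16.8% were lower and 25.1% higher in the first comparison and 14.8% lower and 17.6% higher in the second, so counts over 3 rows say little beyond those rows. CATA_DANRE, catalase, was at 0 in all C. hamatus libraries, at 448, 335 and 184 CPM in G. acuticeps and at 65.3, 280.3 and 72.4 CPM in T. bernacchii. Its C. hamatus level was at least 419-fold below that of G. acuticeps (adjusted p = 0.000188) and at least 181-fold below that of T. bernacchii (adjusted p = 0.000354), or at least 89.5-fold with T. bernacchii replicate 2 left out. Why this row was at 0 in C. hamatus was not tested. Rows of ribosomal proteins, named below, were at or near 0 there as well. The higher row, NB5R3_RAT, the reductase that keeps hemoglobin iron reduced, differed by 1.44 from G. acuticeps (SE 0.44, adjusted p = 0.0252), and was not called without C. hamatus replicate 2 or G. acuticeps replicate 2 or 3. SODC_DANRE, superoxide dismutase, was the other lower row against T. bernacchii (-1.31, SE 0.41, adjusted p = 0.0333). Lower rows against T. bernacchii numbered 1 without C. hamatus replicate 1 or 3, G. acuticeps replicate 2 or T. bernacchii replicate 1 or 3, and lower rows against G. acuticeps numbered 2 without C. hamatus replicate 2 or T. bernacchii replicate 2. The other globins listed came to 1 row, MYG_GOBGI, myoglobin, with 1, 0 and 0 counts in the C. hamatus libraries, 7, 3 and 30 in those of G. acuticeps and 8, 7 and 6 in those of T. bernacchii, too few for the test.

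The summed level of red cell markers other than globins was lowest in the icefish and higher in G. acuticeps than in T. bernacchii, with no overlap between the species. The 5 marker rows summed to 195 to 321 CPM in C. hamatus, 5824 to 15302 CPM in G. acuticeps and 1463 to 2173 CPM in T. bernacchii. In C. hamatus all 5 were called lower relative to G. acuticeps (median -6.80) and 4 relative to T. bernacchii (median -5.25), with 0 called higher in either comparison, where 16.8% and 14.8% of all rows were called lower. CAHZ_DANRE, carbonic anhydrase, differed by -6.80 (adjusted p = 8.81e-05) and -5.25 (adjusted p = 0.000267), and RHAG_HUMAN, a membrane channel of red cells, by -7.35 (adjusted p = 0.000314) and -5.26 (adjusted p = 0.00144), or -8.26 and -6.16 without C. hamatus replicate 2. B3AT_ONCMY, the anion exchanger of the red cell membrane, which differed by -4.53 from G. acuticeps and by -3.81 leaving out G. acuticeps replicate 1, was at 164, 215 and 299.8 CPM in C. hamatus, 9508, 4652 and 1541 CPM in G. acuticeps and 565, 392 and 210.1 CPM in T. bernacchii. C. hamatus overlapped T. bernacchii on this row, which was not called between them (-0.78, adjusted p = 0.393).

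G. acuticeps had 3 red cell rows called higher than T. bernacchii and 0 lower, 1 of them without T. bernacchii replicate 1, while its hemoglobin sums were lower. Of all rows 13.1% were called higher in the main fit, and 1 of 5 is near that share. Without T. bernacchii replicate 1, 2308 of 9261 rows were called in either direction, compared with 2721 of 8662 in the main fit. The 3 were B3AT_ONCMY, CAHZ_DANRE and HEM0_OPSTA, which both lists hold. B3AT_ONCMY was higher by 3.75 (SE 0.72, adjusted p = 0.00298), and by 3.01 without G. acuticeps replicate 1. CAHZ_DANRE was higher by 1.55 (SE 0.51, adjusted p = 0.0402), a call lost on leaving out any library of either species (adjusted p up to 0.106) and with a replicate block (0.0618). RHAG_HUMAN was 2.09 higher (SE 0.73, adjusted p = 0.0509) and ERMAP_HUMAN, an erythroid membrane protein, 0.66 higher (SE 0.43, adjusted p = 0.267), and neither was called. RHAG_HUMAN was at 1888, 1158 and 392 CPM in G. acuticeps and at 419.8, 188 and 199.9 CPM in T. bernacchii, so that G. acuticeps replicate 3 was below T. bernacchii replicate 1.

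**Figure D5:**
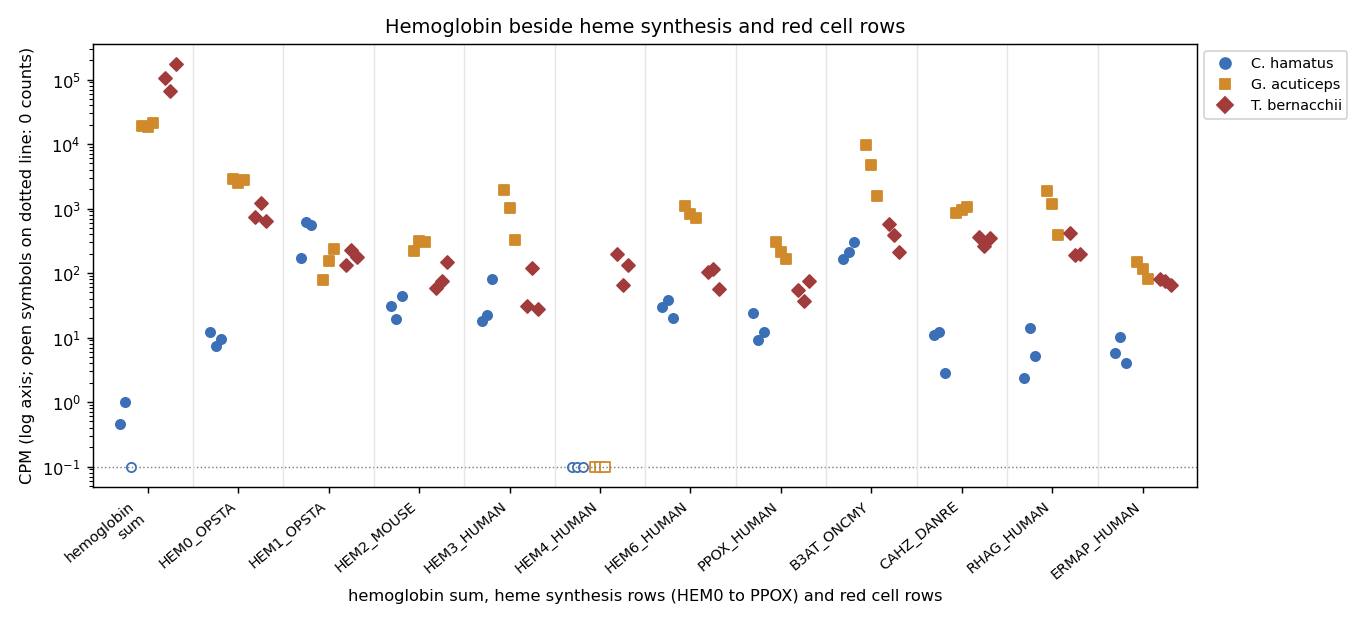
Level of the hemoglobin sum, at the left, and of the heme synthesis and red cell rows in CPM on a log axis. There is 1 point per library, with C. hamatus left of G. acuticeps and T. bernacchii, and open symbols mark 0 counts. HEM0_OPSTA lies at 7.45 to 12.3 CPM in C. hamatus, 2456 to 2916 CPM in G. acuticeps and 639.6 to 1236 CPM in T. bernacchii, while HEM1_OPSTA overlaps between the species.

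The rows most like summed hemoglobin across the 9 libraries were none of the listed red cell or heme rows. Likeness was the root mean square difference of log2(CPM + 1) profiles, each centred on its own mean, over 6249 candidate rows with a median difference of 7.14. This measure weighs the size of a change, so it favors rows near 0 in C. hamatus and high in the other species. The 5 nearest were RL37_RAT (2.34), ATF4_DANRE (3.14), RL5_CHICK (3.16), PAF1_DANRE (3.24) and SAP_CHICK (3.55). Their log2 differences of G. acuticeps from T. bernacchii were 1.24, 1.37, 0.20, -1.35 and -0.54 in that order, beside -2.56 for summed hemoglobin. RL37_RAT held 0, 0 and 4 counts in C. hamatus, against 2982 to 7623 CPM in G. acuticeps and 1326 to 3435 CPM in T. bernacchii. RL37 and RL5 are ribosomal proteins that every cell makes, and why their rows were at or near 0 in C. hamatus was not tested. The other 4 rows were at 0 in C. hamatus, where other rows of the same name held counts for ATF4_RAT (2918 counts, compared with 13580.0 in G. acuticeps and 1630.0 in T. bernacchii) and SAP_BOVIN (17926 counts, compared with 29926 in G. acuticeps and 26033 in T. bernacchii).

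The icefish zeros of hemoglobin were set beside all rows of high level. Of 152 rows with a mean of at least 1000 CPM in G. acuticeps, 7 held at most 5 counts over the C. hamatus libraries, which is 4.61%, and of 128 such rows in T. bernacchii, 7 did, which is 5.47%. With rows of 1 protein name summed over organisms, 5 of 155 names in G. acuticeps and 6 of 128 in T. bernacchii did. Those names were HBA2, HBB2, NINJ1, RL37 and ROA1 for G. acuticeps, and HBA, HBB, HBB2, FIBB, HMR1 and RL37 for T. bernacchii, chosen after their values were seen. The limit of 5 counts is the C. hamatus total of HBB2, so the share of hemoglobin among these names supports nothing beyond them. The 5 counts lay on HBB2_PSEUR, while HBB2 was high in T. bernacchii through HBB2_GOBGI. At 0 counts in C. hamatus, 3 names remained for G. acuticeps, HBA2, NINJ1 and ROA1. For T. bernacchii 4 remained, HBA, HBB, FIBB and HMR1.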

How the data were processed

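The head kidney of 3 species was measured by bulk RNA sequencing in 9 libraries. The deposited table holds raw read counts, not normalized by the authors, per the file header and the values. Trizol served for RNA and an Illumina TruSeq kit for libraries, per the labels' protocols. The aligner, reference and counting tool, and whether counting used strand, were not stated in any source at hand. Rows are UniProt entries, 12653 in all with 11291 distinct mnemonics. With no genome or sequence table at hand, neither coordinates nor sequences are given.

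Libraries were grouped by labelled species. The edgeR function filterByExpr left 8662 rows, which were scaled by TMM and fitted in edgeR 4.0.16 (R 4.3.3, quasi-likelihood, species as the only term, spread shared over the 9 libraries). Each adjusted p in the text comes from this edgeR fit, Benjamini-Hochberg adjusted over all tested rows, at a threshold of 0.05, unless DESeq2 1.42.0 is named. CPM are counts scaled by TMM library sizes. A fold change has as SE its log2 size over the square root of the F statistic, an approximation. Sums replaced the rows of a chain by 1 row in the same fit. A species at 0 was set to a floor of 3 counts per library for a lower bound, and 1 to 5 counts gave a ratio with an exact 95% binomial interval. Depth, from 2501922 to 12055675 counts per library, sets these bounds. The fit was run on simulated counts with 200 changed rows. Those changes were smaller than the differences of the called hemoglobin rows, and no row was set to be absent from a whole species. The simulation thus does not cover such rows.

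The members, lists, markers and tests were chosen with earlier results of these data known. Lists were matched by exact mnemonic, and listed mnemonics with no row were not analysed here. Named rows were all hemoglobin rows, up to 4 rows per list with the largest change among those called the same way in both C. hamatus comparisons, and the 5 rows nearest in profile. One row that this rule names is not reported here. The further heme synthesis, red cell and single list rows in the text were named after their values were seen. Permutation tests planned for shares and ratios are not given, since 3 libraries against 3 cannot go below 0.1 and the members were chosen with results known.

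Alternatives were DESeq2 (size factors and own test), no filter, a filter of 50 counts in 3 libraries, a fit of only the libraries of a pair, a replicate block, scaling without the 20 highest rows, and leaving out each library. Leaving out C. hamatus replicates 2 and 3 was added after seeing the data. Scaling without hemoglobin rows and no TMM were further alternatives, which for counts over the lists were added after seeing the data. All alternatives for counts of red cell rows were also added then. Figures were drawn with matplotlib 3.10.9.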

Additional observations from a re-analysis of the deposited data

How the results depend on the processing

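All calls of hemoglobin rows in the report were made under every alternative run, and the counts of lower rows in C. hamatus were 3 against G. acuticeps and 4 or 5 against T. bernacchii. Each called row was at or near 0 in a whole species of its comparison, so the alternatives could hardly have undone these calls. Higher hemoglobin rows in C. hamatus against T. bernacchii numbered 1 with DESeq2, and 0 to 1 leaving out single libraries. That row was HBB2_PSEUR, with at most 3 counts in any C. hamatus library. The hemoglobin share in G. acuticeps was 2.18% when the 20 highest other rows were taken out of the library total. It rose in T. bernacchii as well, from 11.1, 7.65 and 15.1% to 13.4, 8.74 and 18.2% in replicates 1, 2 and 3. The beta sum difference between G. acuticeps and T. bernacchii ran from -2.43 to -1.44 leaving out single libraries.

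Leaving out single libraries, heme synthesis rows numbered 3 to 5 lower in C. hamatus than in T. bernacchii and 3 to 5 higher in G. acuticeps than in T. bernacchii. Heme and iron supply rows in C. hamatus against T. bernacchii numbered 4 to 7 lower and 1 to 2 higher, heme breakdown rows 1 to 3 lower. Globin regulators higher in G. acuticeps than in T. bernacchii numbered 2 to 5, and red cell rows 1 to 4. Redox partners in C. hamatus numbered 1 to 2 lower and 0 to 1 higher against G. acuticeps, and 1 to 2 lower against T. bernacchii.

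Without C. hamatus replicates 2 and 3, against T. bernacchii heme synthesis had 2 lower rows, heme and iron supply 2, heme breakdown 1 and redox partners 1. Against G. acuticeps, heme breakdown had 0 lower and redox partners 0 higher. Between G. acuticeps and T. bernacchii, 5 regulators were higher and 2 heme breakdown rows lower. With 50 counts in 3 libraries as the filter, heme and iron supply had 0 rows higher in C. hamatus than in T. bernacchii, and heme breakdown 1 row lower than in G. acuticeps. DESeq2 called 2 supply rows higher against T. bernacchii and 2 redox partners lower against G. acuticeps. The number of redox partners lower against G. acuticeps was also 2 with scaling without hemoglobin rows, and 1 redox partner was lower against T. bernacchii without TMM. The cause of these shifts was not tested, apart from the fewer samples or rows that an alternative holds. No share over all rows under the same alternative stands beside the counts of listed rows in this section. A count of 1 or 2 rows may thus be near that share.

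Values not called changed sign for HEM1_OPSTA, at -0.072 in C. hamatus against T. bernacchii without C. hamatus replicates 2 and 3, and from -0.56 to 0.13 in G. acuticeps against T. bernacchii leaving out single libraries. HEM3_HUMAN in C. hamatus against T. bernacchii ran from -1.56 to 0.44. Without TMM the median over all rows shifted to 0.36 in C. hamatus against G. acuticeps, from 0.15, and to -0.25 in G. acuticeps against T. bernacchii, from -0.12.

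With a replicate block, 3389 rows were called in C. hamatus against G. acuticeps where 3636 were without it, and 0 redox partners were higher. Libraries of the same number in different species had correlations of deviations from -0.22 to 0.26, with 2 of 9 over 0.1. Those of different number ran from -0.18 to 0.23. With 3 libraries per species, these correlations cannot decide whether the numbers pair the samples. Depth limits the bounds of rows at 0 to the floor of 3 counts per library.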

Other observations

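Neuroglobin, an oxygen-binding globin of nerve cells that is not a hemoglobin chain, was present in the icefish. NGB1_ONCMY, a row outside the lists and chosen after its values were seen, held 89, 255 and 186 counts in C. hamatus, 136, 211 and 381 in G. acuticeps, while T. bernacchii had 1, 0 and 7. It differed by 0.10 on the log2 scale between C. hamatus and G. acuticeps (SE 0.64, adjusted p = 0.928), with overlapping libraries. Against T. bernacchii it was higher in C. hamatus by 6.84 (SE 0.88, adjusted p = 0.000434) and in G. acuticeps by 6.74 (SE 0.87, adjusted p = 0.000327).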
